A study of Mus musculus with 2 samples.

Results

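The 31 semaphorin, plexin and neuropilin genes of the mouse were followed through the cell classes of the dorsal telencephalon at embryonic day (E) 14.5. They were taken by gene symbol, and all 31 were found among the 32285 genes of the deposited tables. The list holds 20 ligands and 11 receptors, namely 7 secreted semaphorins (*Sema3a* to *Sema3g*), 12 transmembrane semaphorins (*Sema4*, *Sema5* and *Sema6* genes), the membrane-anchored *Sema7a*, 9 plexins and 2 neuropilins. Single cell RNA sequencing (droplet-based, 3' ends) had been carried out on 2 samples, called replicates 1 and 3 after their labels. Both were wild-type (WT) control embryos of the Eomes-Cre mouse line, named EomesMllt3 in the series text (the study's methods name them only as C57BL/6J mice), with no treatment given, so that all comparisons were between cell classes and none between genotypes. In the study, the samples served to ask which ligands of SST+ cortical interneurons could meet receptors on intermediate progenitors (IPCs) and radial glia (RGCs). The labels give 2 separate samples and do not say how many embryos each held, so p-values measure only the spread between these samples.

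Semaphorins are guidance cues that act mainly through plexins, whose cytoplasmic part is a GTPase-activating domain for small GTPases of the Ras and Rap type. Most secreted semaphorins need a neuropilin as the binding subunit beside an A-type plexin, while *Sema3e* can bind *Plxnd1* directly, and transmembrane semaphorins bind plexins without a neuropilin. In the developing cortex these genes are known for steering axons, for the migration of newborn neurons, for the sorting of interneurons on their way into the cortex, and for the growth of vessels.

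Captured RNA molecules were counted by their unique molecular identifiers (UMIs). The 2 samples held 6163 and 8870 barcodes with 64182006 and 93295807 UMIs, and shared 23 barcode sequences. After filtering, 5149 and 6854 cells were kept in 25 clusters, which were formed and named without use of the 31 genes or their partners, and are called "-like" for that reason. The 4 main classes were RGC-like (689 and 1563 cells in replicates 1 and 3), IPC-like (533 and 967), projection neuron (PN)-like (2881 and 3502) and interneuron (IN)-like cells of the medial ganglionic eminence (MGE IN-like; 337 and 218). MGE IN-like cells were shallow, with a median of 4528 and 4018.5 UMIs against 10187 to 12977 in the other main classes, and 85 and 71 of them held an *Sst* UMI. Levels are given as CPM, the UMIs of a gene scaled to a total of 1000000 UMIs for the class and replicate. They were not divided by gene length, and so the levels of different genes are not compared.

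Of the 31 genes, 28 passed the filter on low counts over the main classes, and *Sema3b*, *Sema3g* and *Plxnb3* did not (at most 1.69 CPM in any main class). Differences were tested on summed UMIs with edgeR's quasi-likelihood test and Benjamini-Hochberg adjustment over all genes tested, and a gene is called at an adjusted p under 0.05. All 28 were called in at least 1 of the 6 comparisons between main classes, as were 85.5% of all 15209 genes tested. Sums of 2 samples are compared here, and the classes came from the same cells, so that a call describes the classes as clustered. Genes used for comparison are all genes of the same fit, and they were not matched to the list on their level. The removal of predicted doublets changed many fold changes: with doublets kept, 61 of the 224 called fold changes of members moved by over 1.5 times, and 44 of the 61 stayed called. For the members the results turn on, such values are given beside the fold change.

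Some of the genes lie close together in the genome. *Sema3d*, *Sema3a*, *Sema3e* and *Sema3c* follow each other on chromosome 5 within 5.35 Mb (chr5:12383161-17730268, RefSeq, GRCm38.p6, the build named mm10 in the submitters' notes). *Sema3b* and *Sema3f* lie within 0.113 Mb on chromosome 9, and *Plxnb3* and *Plxna3* within 0.588 Mb on chromosome X. Among the main classes, the 4 neighbours on chromosome 5 differed in the class with the highest level (see their values under the ligands). For *Sema3a* the highest class, MGE IN-like cells, was not called above RGC-like cells. For *Sema3d* the highest class, RGC-like cells, was not called above MGE IN-like cells. That difference was called with the stricter cell filter (-2.42 in MGE IN-like cells) and without the filter on low counts (-1.18). Over all named classes, *Sema3a* (273 and 282 CPM) and *Sema3d* (42.8 and 17.5 CPM) were both highest in meningeal-like cells. The promoters of all 4 are shown for the difference among the main classes. Each window holds the 250 bases before and 50 bases after the start used in the RefSeq promoter table, on the plus strand. That start is the start of the gene for *Sema3e* and *Sema3c* and lies 5 bases inside the gene for *Sema3d*, but for *Sema3a* it lies 272 kb inside the annotated gene, so that its window belongs to an internal start and is not set beside the others. Capitals mark each CANNTG, the E-box core read by basic helix-loop-helix factors, which reads alike on both strands. The windows are chr5:12382916-12383215 for *Sema3d*, chr5:13396534-13396833 for *Sema3a*, chr5:14025026-14025325 for *Sema3e* and chr5:17574566-17574865 for *Sema3c*.
Sema3d: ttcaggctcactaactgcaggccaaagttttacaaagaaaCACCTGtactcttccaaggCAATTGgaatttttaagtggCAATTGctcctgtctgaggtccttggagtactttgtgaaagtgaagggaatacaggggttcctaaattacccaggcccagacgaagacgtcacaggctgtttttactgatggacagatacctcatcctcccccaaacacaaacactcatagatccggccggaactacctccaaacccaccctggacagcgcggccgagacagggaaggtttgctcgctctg
Sema3a: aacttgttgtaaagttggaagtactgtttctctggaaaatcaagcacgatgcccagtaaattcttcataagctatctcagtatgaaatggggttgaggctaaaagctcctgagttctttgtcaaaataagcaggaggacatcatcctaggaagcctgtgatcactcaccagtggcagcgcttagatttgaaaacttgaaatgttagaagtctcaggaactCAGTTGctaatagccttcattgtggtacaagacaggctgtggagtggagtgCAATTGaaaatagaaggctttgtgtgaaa
Sema3e: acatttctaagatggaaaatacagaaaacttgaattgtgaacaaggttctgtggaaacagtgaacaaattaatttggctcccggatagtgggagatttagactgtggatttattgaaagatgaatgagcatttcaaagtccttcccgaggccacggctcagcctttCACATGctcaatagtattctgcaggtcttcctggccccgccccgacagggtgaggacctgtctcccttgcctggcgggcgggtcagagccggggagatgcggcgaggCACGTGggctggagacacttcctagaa
Sema3c: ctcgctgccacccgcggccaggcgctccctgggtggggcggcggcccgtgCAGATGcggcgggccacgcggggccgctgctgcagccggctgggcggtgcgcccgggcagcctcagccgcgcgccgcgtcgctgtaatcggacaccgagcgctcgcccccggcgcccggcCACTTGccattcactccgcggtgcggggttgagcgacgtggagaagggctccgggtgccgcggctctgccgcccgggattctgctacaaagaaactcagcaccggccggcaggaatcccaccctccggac

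The *Sema3c* window held 75.7% G and C with 42 CpG dinucleotides, that of *Sema3e* 50.7% with 11 and that of *Sema3d* 49.7% with 8, and the internal window of *Sema3a* 41.3% with 2. *Sema3d* held 3 CANNTG matches and the other 3 genes 2 each. Only the *Sema3c* window of the 4 held CAGATG, an E-box form bound by proneural factors of the Neurogenin type. A match is a description of letters and not a bound site. Promoter entries existed for 26 of the 31 genes (37 windows, chromosome 18 left out), of which 21 (56.8%) held a CANNTG, against 72.3% of all 32851 windows of the same length. CAGATG or its reverse complement CATCTG was held by 2 of the 37 windows (5.41%; *Sema3c* and *Sema4a*) against 17.2% of all. The windows of members had a median of 63.7% G and C against 52.7% over all windows. The part of base composition in these motif shares was not tested.

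The neuropilins and *Plxna4* had their lowest level in RGC-like cells and their highest in PN-like cells among the main classes, with IPC-like and MGE IN-like cells between. *Nrp1*, the binding subunit for *Sema3a*, was at 13.0 and 8.85 CPM in RGC-like cells of replicates 1 and 3, at 143 and 246 CPM in the IPC-like class, at 510 and 542 CPM in PN-like cells, and at 70.9 and 112 CPM in MGE IN-like cells. The 2 samples of each class lay apart from those of every other main class. From RGC-like to IPC-like cells *Nrp1* rose by 4.25 ± 0.32 on the log2 scale (fold change ± SE, adjusted p = 2.5e-05), and from IPC-like to PN-like cells by 1.58 ± 0.27 (adjusted p = 0.00129). With doublets kept the first of these was 1.69 and was still called. MGE IN-like cells were below IPC-like cells by -1.14 ± 0.30, a call that was lost with predicted doublets kept (-0.36).

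*Nrp2*, which binds *Sema3f* and *Sema3c*, was at 2.84 and 3.83 CPM in RGC-like, 41.5 and 51.0 CPM in IPC-like, 91.0 and 96.7 CPM in PN-like and 53.6 and 45.2 CPM in MGE IN-like cells. Its levels in IPC-like and MGE IN-like cells overlapped, with a log2 difference of 0.09 ± 0.17, and the other classes were apart. Among single clusters with a class name, *Nrp2* was highest in an IPC-like cluster, at 392 and 223 CPM. The log2 fold change from RGC-like to PN-like cells was 4.93 ± 0.17 (adjusted p = 7.84e-08) and 3.26 with doublets kept, where the rise from IPC-like cells (1.16 ± 0.13) lost its call (0.50).

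Among the plexins, *Plxna4* was at 14.4 and 19.0 CPM in RGC-like, 342 and 257 CPM in IPC-like, 1327 and 1074 CPM in PN-like and 365 and 227 CPM in MGE IN-like cells. It had the largest fold change of the list between PN-like and RGC-like cells, 6.36 ± 0.30 (adjusted p = 3.28e-07). With doublets kept it was 3.28, and the rise from RGC-like to IPC-like cells went from 4.20 ± 0.28 to 1.42, both still called. The difference between MGE IN-like and IPC-like cells was within the spread (-0.01 ± 0.25) and became a rise of 0.63 with predicted doublets kept. *Plxna2*, a receptor of *Sema6a*, was at 174 and 110 CPM in the RGC-like class, and at 723 and 779, 938 and 918, and 670 and 603 CPM in IPC-like, PN-like and MGE IN-like cells. It rose by 2.48 ± 0.20 from RGC-like to IPC-like cells (adjusted p = 3.63e-05; 1.60 with doublets kept), and IPC-like and PN-like cells differed by 0.46 ± 0.19, not called (adjusted p = 0.0733) and called with the replicate block (0.45).

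The other plexins moved less or were low. *Plxna1* and *Plxna3* stayed at 7.41 to 9.85 CPM in both progenitor classes and were at 15.4 to 28.9 CPM in both neuron classes. *Plxnb1* (12.2 to 31.6 CPM) and *Plxnb2* (9.94 to 29.7 CPM), receptors of *Sema4* ligands, were detected in all 4 classes. *Plxnb2* was lowest in MGE IN-like cells (12.3 and 9.94 CPM) and was called lower there than in each of the other 3. *Plxnc1*, the receptor of *Sema7a*, fell at the step where the neuropilins rose, with 63.9 and 32.2 CPM in RGC-like and 8.72 and 7.56 CPM in IPC-like cells (log2 fold change -2.46 ± 0.33). Among the main classes, *Plxnd1* was at most 1.81 CPM outside PN-like cells, where it was at 6.30 and 9.15 CPM.

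Shares of cells with a UMI were taken after thinning each cell to 3000 UMIs, and their 95% Wilson intervals cover counting error only. *Nrp1* was detected in 48.3% (46.4 to 50.1) and 55.3% (53.6 to 57.0) of the PN-like cells, and in 3.14% (2.07 to 4.76) and 1.64% (1.11 to 2.41) of the RGC-like cells. Red blood cell-like cells, which should lack it, gave 4.26% (1.17 to 14.2) and 3.33% (0.919 to 11.4). With intervals this wide, the RGC-like share could not be told apart from background. Without thinning the shares were 60.1% and 65.5%, 10.9% and 7.87%, and 5.36% and 4.21%, at median depths of 11073 and 10547.5, 12977 and 12002, and 5303.5 and 4309 UMIs. In newborn PN-like cells, described further on, 83.7% and 89.0% of the cells held an *Nrp1* UMI and 83.1% and 88.8% held it together with a UMI of an A-type plexin.

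**Figure D1:**
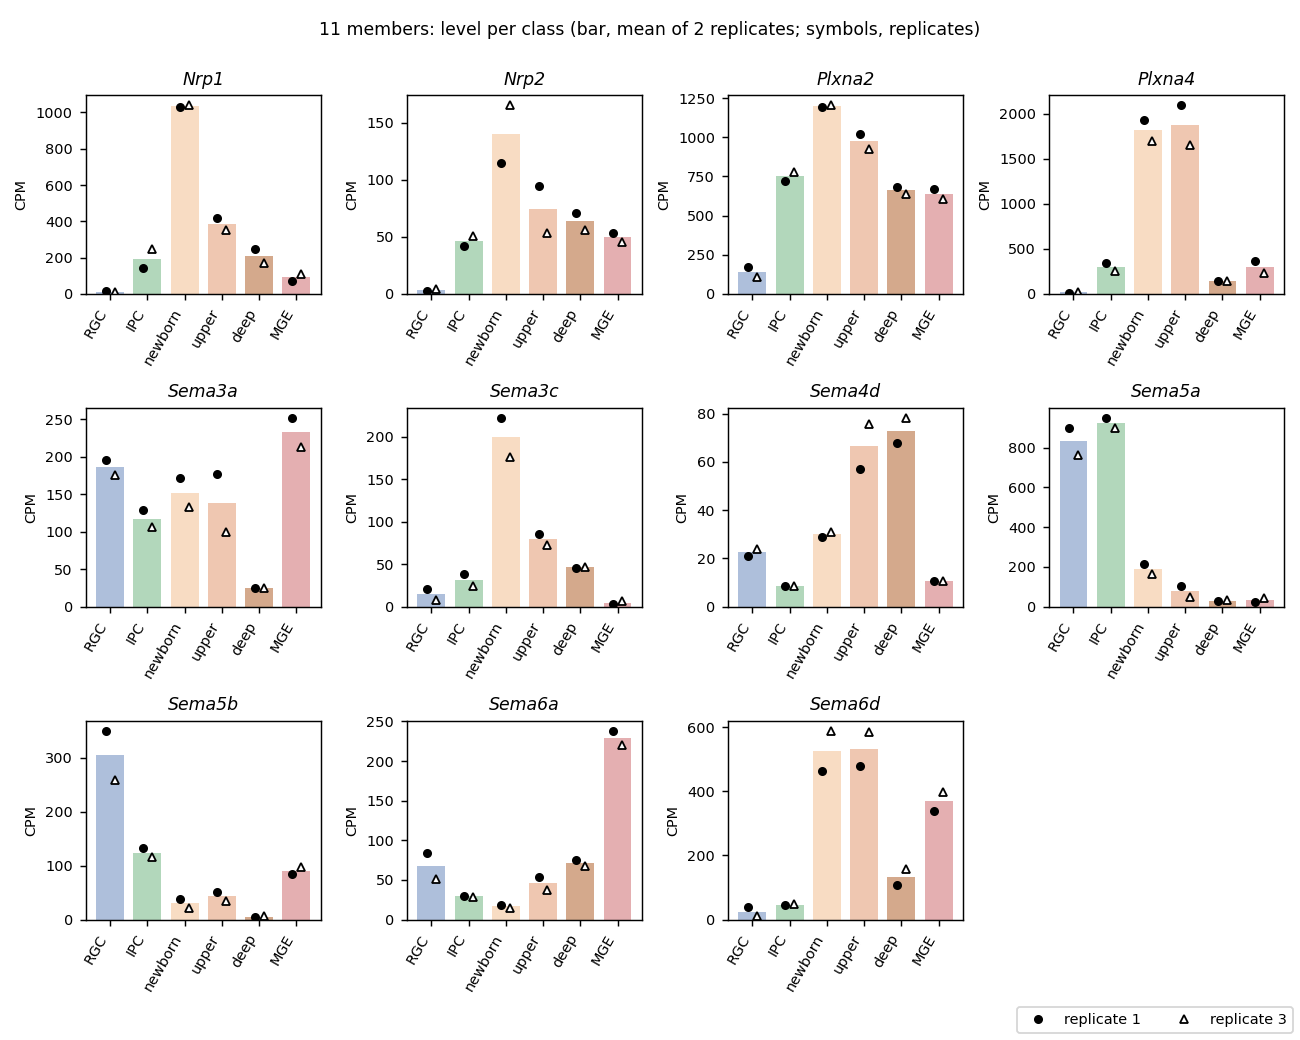
Level in CPM of 11 genes in RGC-like, IPC-like, newborn, upper layer and deep layer PN-like (newborn, upper, deep) and MGE IN-like cells; bars are means of 2 replicates, circles replicate 1 and triangles replicate 3. *Nrp1* peaks in newborn cells at 1030 and 1042 CPM, *Sema5a* is high in both progenitor classes, and *Sema6a* is highest in MGE IN-like cells.

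The secreted ligands were not all highest in the same main class. *Sema3a*, a repellent for many axons, was at 196 and 176 CPM in RGC-like, 129 and 106 CPM in IPC-like, 119 and 82.4 CPM in PN-like and 252 and 213 CPM in MGE IN-like cells. MGE IN-like cells were above PN-like cells by 1.05 ± 0.19 (adjusted p = 0.00309) and above IPC-like cells by 0.98 ± 0.19 (adjusted p = 0.00271). Against RGC-like cells the difference was 0.39 ± 0.19, not called (adjusted p = 0.108), and called with the replicate block, with the stricter cell filter and with cells holding an *Sst* UMI alone (0.37, 0.52 and 1.17).

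*Sema3c*, which binds both neuropilins, was at 20.5 and 8.41 CPM in RGC-like, 38.4 and 24.1 CPM in IPC-like, 106 and 102 CPM in PN-like and 2.79 and 6.32 CPM in MGE IN-like cells. Both neuron classes were thus at opposite ends. The log2 fold change between them was -4.76 ± 0.61 (adjusted p = 0.00051), the largest of the list in that comparison, and -2.57 with doublets kept. The rise from RGC-like to IPC-like cells (1.23 ± 0.36) was lost with predicted doublets kept (0.60), and so was the lower level in MGE IN-like against IPC-like cells (-2.85 ± 0.71 against -0.87).

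*Sema3e*, the ligand of *Plxnd1*, was highest in IPC-like cells, at 39.5 and 52.5 CPM, against 10.2 and 4.13 CPM in RGC-like, 3.97 and 2.87 CPM in PN-like and 0.558 and 6.32 CPM in MGE IN-like cells. It rose by 2.84 ± 0.41 from RGC-like to IPC-like cells (adjusted p = 0.000778) and fell by 3.56 ± 0.40 on the log2 scale from there to PN-like cells (adjusted p = 0.000108). *Sema3d* was at 8.42 and 6.96 CPM in the RGC-like class and did not exceed 5.03 CPM in the others. *Sema3f* was at 5.73 to 12.6 CPM in both neuron classes and at 0.165 to 2.93 CPM in both progenitor classes.

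The transmembrane ligands *Sema5a* and *Sema5b* are known to act on axons as repellents or attractants. *Sema5a* was at 901 and 766 CPM in RGC-like and 951 and 898 CPM in IPC-like cells but at 104 and 87.1 CPM in PN-like and 22.9 and 42.5 CPM in MGE IN-like cells. Both progenitor classes were far above both neuron classes, and they differed from each other by 0.22 ± 0.18 (adjusted p = 0.366). The fall from IPC-like to PN-like cells was -3.12 ± 0.20 (adjusted p = 3.94e-06). *Sema5b* was at 350 and 259 CPM in RGC-like, 132 and 115 CPM in IPC-like, 30.4 and 18.7 CPM in PN-like and 84.3 and 96.7 CPM in MGE IN-like cells, and was called at each of the 2 steps of the projection neuron lineage (-1.23 ± 0.22 and -2.17 ± 0.23). MGE IN-like cells were above PN-like cells in it (1.70 ± 0.26) and differed from IPC-like cells by -0.47 ± 0.25, not called, and called with the replicate block (-0.50) and without the filter on low counts (-0.57).

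*Sema6a* had its highest main class level in MGE IN-like cells, at 238 and 220 CPM, against 83.9 and 50.7 CPM in RGC-like, 30.3 and 28.3 CPM in IPC-like and 53.1 and 40.9 CPM in PN-like cells. The difference from PN-like cells was 2.12 ± 0.23 (adjusted p = 0.000223). RGC-like and PN-like cells overlapped in it. *Sema6d* was high in both neuron classes, at 337 and 417 CPM in PN-like and 340 and 397 CPM in MGE IN-like cells, and low in RGC-like (38.5 and 11 CPM) and IPC-like cells (44.4 and 47.9 CPM). Its rise from IPC-like to PN-like cells was 3.17 ± 0.44 (adjusted p = 0.000407), and the neuron classes differed by -0.20 ± 0.41.

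*Sema4d* was at 54.0 and 59.8 CPM in PN-like cells, 21.2 and 24.0 CPM in RGC-like, 8.39 and 8.46 CPM in IPC-like and 10.6 and 10.8 CPM in MGE IN-like cells. It thus fell by 1.34 ± 0.13 on the log2 scale at the first step of the lineage and rose by 2.88 ± 0.12 at the next one (adjusted p = 8.8e-05 and 7.74e-07). Of the ligands below 50 CPM, *Sema3f*, *Sema4a*, *Sema4c*, *Sema4f*, *Sema4g*, *Sema6b* and *Sema6c* were called higher in both neuron classes than in both progenitor classes, with log2 fold changes from 0.88 to 4.70. With the stricter cell filter *Sema3f* lost its call against RGC-like cells (1.68) and *Sema4c* against IPC-like cells (0.86), both in MGE IN-like cells. *Sema7a* was at 19.2 and 20.2 CPM in PN-like cells against 1.47 and 1.54 CPM in RGC-like cells. *Sema4b* lay between 12.3 and 24.2 CPM in all 4 classes.

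Along the projection neuron lineage more members were called higher than lower at each step. From RGC-like to IPC-like cells 11 of the 28 tested members were higher and 6 lower, against 19.5% and 20.3% of all genes tested. With doublets kept this step had 9 higher and 7 lower. From IPC-like to PN-like cells 18 were higher and 5 lower (26.1% and 23.5% of all genes). PN-like against RGC-like cells gave 19 higher and 6 lower (34.9% and 30% of all genes), with a median log2 fold change of 1.86 over the list and 0.07 over all genes. By role, the last comparison had 7 of 10 receptors and 12 of 18 ligands higher. With scaling by library size alone, the median of all genes in the comparisons with PN-like cells shifted by 0.144 to 0.220, and the split of all genes between PN-like and RGC-like cells turned from 5309 higher and 4567 lower to 4183 and 5764, while the list gave 18 higher and 6 lower.

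**Figure D2:**
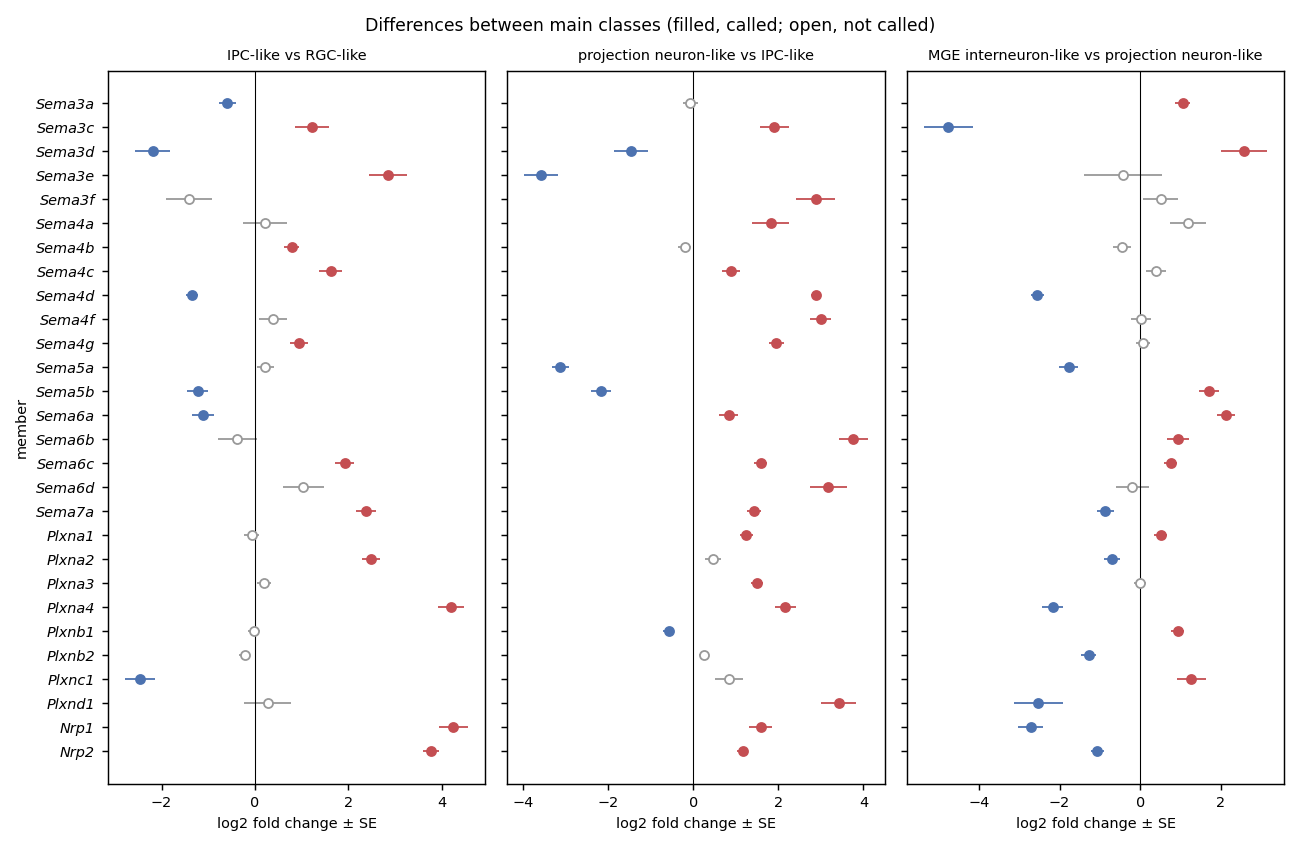
Log2 fold change with its SE of the 28 tested members in 3 comparisons; filled symbols are called (red higher, blue lower) and open symbols are not. *Nrp1*, *Nrp2* and *Plxna4* lie to the right at both steps of the lineage, and *Sema3c* lies farthest to the left between the neuron classes, at -4.76.

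MGE IN-like cells were above RGC-like cells in 16 members and below in 4 (28.7% and 31% of all genes), and above IPC-like cells in 13 and below in 6 (24.0% and 27.6%). Without the filter on low counts 8 were below RGC-like cells, and with doublets kept 3 were below IPC-like cells. Against PN-like cells 9 members were higher and 10 lower (13.7% and 22.6%). Higher there were *Sema3a*, *Sema3d*, *Sema5b*, *Sema6a*, *Sema6b*, *Sema6c*, *Plxna1*, *Plxnb1* and *Plxnc1*. Lower were both neuropilins, *Plxna2*, *Plxna4*, *Plxnb2*, *Plxnd1*, *Sema3c*, *Sema4d*, *Sema5a* and *Sema7a*. The count fell to 3 higher and 10 lower with the stricter cell filter, to 5 and 7 with cells holding an *Sst* UMI alone, and *Plxna1* was not called with the replicate block (0.50). With predicted doublets kept, *Sema5a* (-0.71), *Sema6b* (0.70), *Plxna1* (0.37) and *Plxnc1* (1.04) lost their call. Some differences varied between samples. From replicates 1 and 3 alone they were 0.14 and 0.60 for *Plxna1*, 3.1 and 0.58 for *Sema3d* (9 and 1 UMIs in MGE IN-like cells), 0.55 and 1.07 for *Sema6b*, 0.38 and 0.84 for *Sema6c*, and -0.84 and -1.32 for *Sema7a*. Over all genes the split was 2078 higher and 3431 lower, and 2900 and 2628 with scaling by library size alone.

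Markers of other cell types were low but present in these sums. Summed over 9 markers each, endothelial markers reached 7.57 to 14.5 CPM, meningeal markers 2.47 to 13.9 CPM and microglial markers 5.58 to 21.8 CPM in the 4 main classes, and red blood cell markers 132 to 1050 CPM. The 12 RGC markers summed to 271 and 388 CPM in MGE IN-like cells and 238 and 309 CPM in PN-like cells, against 7786 and 6079 CPM in RGC-like cells. The 10 projection neuron markers, some of which interneurons also use, summed to 2035 and 2034 CPM in MGE IN-like cells against 6881 and 6678 CPM in PN-like cells. At the step from RGC-like to IPC-like cells, where the neuropilins and *Plxna4* rose, these markers went from 574 and 522 to 1462 and 1432 CPM, and the RGC markers were still at 1542 and 1458 CPM in IPC-like cells. Their part in the differences was not tested.

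Within the lineage the clusters differed among themselves. Of the 28 tested members, 9 had their highest cluster mean in a newborn PN-like cluster, 4 each in a deep layer and an IPC-like cluster, 3 each in the meningeal-like and the pericyte-like cluster, 2 in the endothelial-like cluster and 1 each in an RGC-like, an upper layer and the MGE IN-like cluster. Of the 9 in newborn clusters, 7 were highest in the cluster of 31 and 118 cells led by the antisense RNA *Plxna4os3*, and 5 of these rest on 4 to 8 UMIs in replicate 1. Without that cluster 4 members were highest in a newborn and 6 in a deep layer cluster. *Sema3e* and *Sema5a* were both highest in 1 IPC-like cluster led by *Gadd45g* and *Smoc1*, at 86.6 and 112 CPM and at 1851 and 1676 CPM. In the IPC-like cluster led by *Kif26b* and *Eomes* they were at 15.9 and 21.7 CPM and at 469 and 474 CPM, while *Nrp1* was at 161 and 325 CPM there against 34.5 and 67.5 CPM in the *Gadd45g* cluster. Among RGC-like clusters, *Sema5a* was at 1386 and 1416 CPM in the cluster led by *Mt3* and *Fabp7* and at 243 and 237 CPM in that led by *Ltbp1*, which held 69 and 326 cells.

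**Figure D3:**
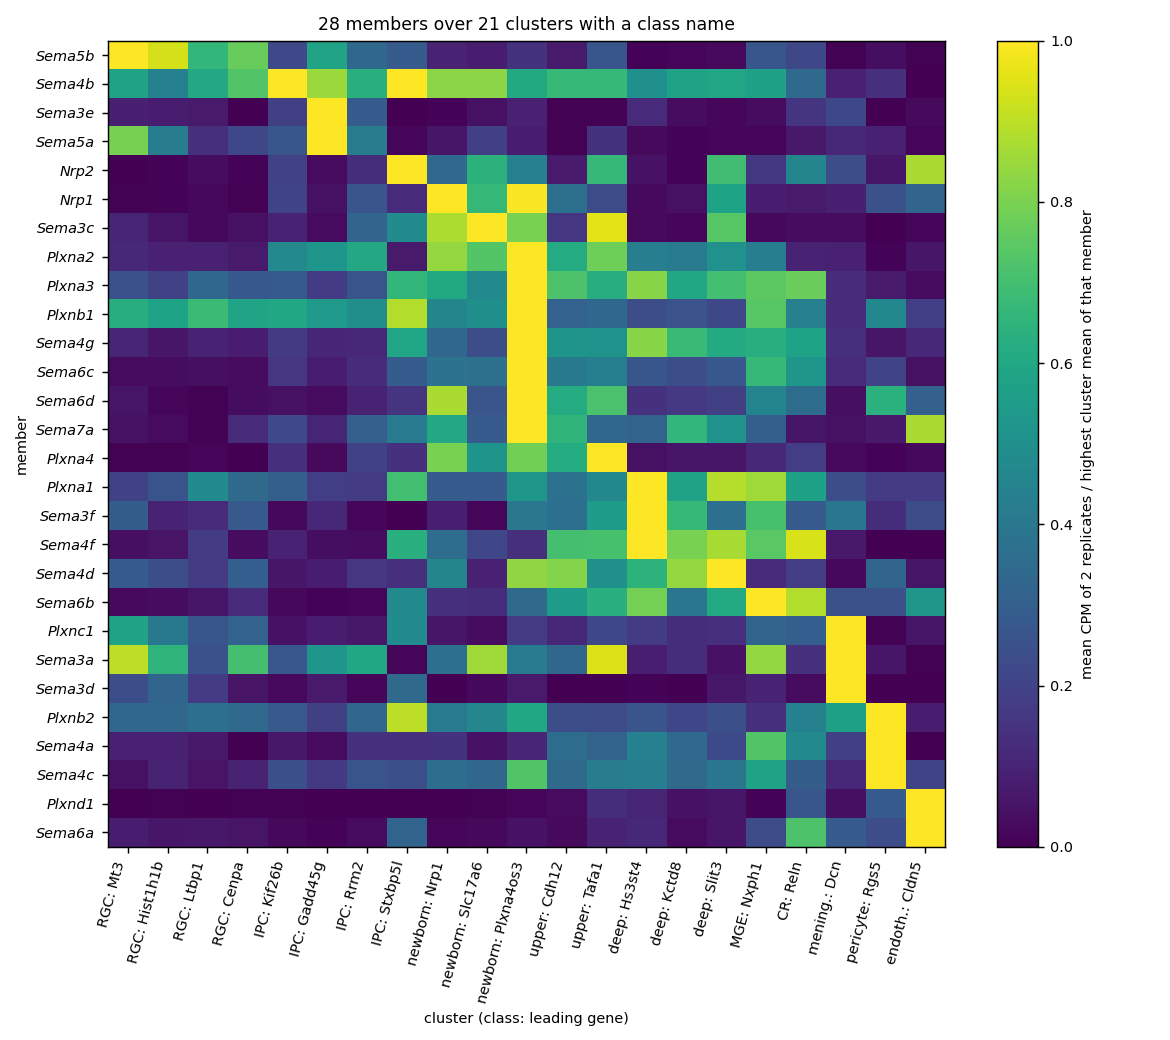
Mean CPM of 28 members in 21 named clusters, scaled to the highest cluster of each member; columns run from RGC-like and IPC-like over newborn, upper layer and deep layer PN-like (newborn, upper, deep) to MGE IN-like, Cajal-Retzius-like (CR) and non-neural clusters. *Sema5b* peaks at the left, *Nrp1* and *Sema3c* in newborn clusters, and *Plxnd1* and *Sema6a* at the right end in endothelial-like cells.

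The PN-like class was split into newborn (825 and 1537 cells), deep layer (944 and 1156) and upper layer (1112 and 809) cells by markers. *Nrp1* was at 1030 and 1042 CPM in newborn, 416 and 354 CPM in upper layer and 249 and 173 CPM in deep layer cells, with no overlap among the 3. The log2 fold change was -2.24 ± 0.20 from newborn to deep layer (adjusted p = 0.000168) and -1.44 ± 0.19 from newborn to upper layer cells (adjusted p = 0.00255). With doublets kept, upper and deep layer cells were no longer called different in *Nrp1* (0.15 against 0.80 ± 0.19). *Sema3c* followed the same order, with 223 and 176, 85.6 and 73.0, and 46.1 and 47.3 CPM, and UMIs of *Sema3c* and *Nrp1* were found together in 33.8% and 31.7% of the newborn cells thinned to 3000 UMIs (62.8% and 53.9% without thinning). The difference between upper and deep layer cells in *Sema3c* was 0.70 ± 0.14 and was lost with doublets kept (0.19).

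*Plxna4* did not follow that order. It was at 1932 and 1702 CPM in newborn and 2102 and 1651 CPM in upper layer cells, which overlapped, and at 138 and 144 CPM in deep layer cells. The log2 fold change from deep to upper layer cells was 3.67 ± 0.17 (adjusted p = 9.04e-05). *Sema6d* (464 and 590, 480 and 584, and 108 and 157 CPM in newborn, upper and deep layer cells) and *Sema3a* (172 and 133, 177 and 99.2, and 24.8 and 24.7 CPM) were likewise lowest in deep layer cells. Higher in deep layer than in newborn cells were *Sema6a* (75.8 and 67.4 against 18.8 and 15 CPM), *Sema4d* (67.7 and 78.3 against 29.0 and 30.9 CPM), *Sema3f* (11.8 and 10.8 against 0.937 and 1.11 CPM), *Plxna1* (28.8 and 23.2 against 9.13 and 9.19 CPM) and *Plxnd1* (7.37 and 16.8 against 0.585 and 0.766 CPM).

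In counts, 27 members were tested among the subclasses. Deep layer against newborn cells gave 12 higher and 13 lower (22.2% and 18.3% of all genes), upper layer against newborn cells 8 and 6 (11.9% and 8.80%), and upper layer against deep layer cells 9 and 3 (5.71% and 8.32%). *Sema4c* and *Sema7a* were the 2 members not called between deep layer and newborn cells (0.19 ± 0.11 and 0.01 ± 0.12), and *Sema7a* was called lower in deep layer cells with predicted doublets kept (-0.50). With the replicate block 25, 17 and 14 members were called in these 3 comparisons in place of 25, 14 and 12, and 5 in place of 3 were lower in upper than in deep layer cells. With doublets kept, upper against deep layer cells gave 5 higher and 3 lower, and upper layer against newborn cells 10 and 3.

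Clusters within 1 subclass also differed, which is given as a description. In the deep layer cluster led by *Slit3* and *Crym*, *Nrp1* was at 852 and 522 CPM, *Nrp2* at 266 and 160 CPM and *Sema3c* at 173 and 148 CPM, whereas the clusters led by *Hs3st4* and *Kctd8* held 19.7 to 76.2 CPM of *Nrp1*, 1.86 to 19.4 CPM of *Nrp2* and 2.28 to 5.90 CPM of *Sema3c*. *Plxna4* was at 97.8 to 173 CPM in all 3. In the upper layer cluster led by *Tafa1* and *Tafa2*, which held 462 and 187 cells, *Sema3c* was at 177 and 238 CPM and *Plxnd1* at 19.0 and 24.5 CPM, against 38.3 and 30.9 CPM and 4.01 and 5.97 CPM in the other upper layer cluster. Without the antisense-led newborn cluster *Plxna4* was at 1325 and 1060 CPM in PN-like cells and no call of a member changed. Whether reads were counted by strand is not stated, and *Plxna4* and its antisense RNA cannot then be told apart with certainty.

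The minor classes were compared with the mean of the 4 main classes. Endothelial-like cells (17 and 40) entered with a minimum of 10 cells, chosen after the data were seen, and with doublets kept. They held *Plxnd1* at 174 and 157 CPM, against at most 9.15 CPM in the main classes (log2 fold change 6.52 ± 0.24, adjusted p = 6.03e-11). *Sema6a* was at 986 and 1004 CPM, *Nrp1* at 409 and 365 CPM and *Nrp2* at 228 and 310 CPM, with log2 fold changes of 3.86 ± 0.23, 1.93 ± 0.35 and 3.17 ± 0.23. *Sema6d* was at 271 and 226 CPM and *Plxna2* at 65.5 and 119 CPM, the first not called (1.14 ± 0.48; called at 0.61 with doublets kept) and the other lower (-2.40 ± 0.52). *Sema3g*, at most 1.91 CPM in any other class, was at 42.9 and 20.5 CPM. Of 29 members tested, 7 were higher and 14 lower (24.1% and 23.2% of all genes).

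Pericyte-like cells (38 and 43) shared *Plxnd1* (40.4 and 54.1 CPM, 4.74 ± 0.36) and *Nrp1* (291 and 291 CPM, 1.51 ± 0.38, and 0.60 with doublets kept) with the endothelial-like cells, but *Nrp2* was at 14.2 and 22.0 CPM. They held *Sema6d* at 667 and 370 CPM (2.18 ± 0.46), *Sema6a* at 336 and 137 CPM (1.76 ± 0.29, with 1.03 from replicate 3 alone), *Sema5a* at 146 and 181 CPM (not called) and *Plxnb2* at 76.8 and 87.8 CPM (1.95 ± 0.17). *Sema4c*, a ligand of *Plxnb2*, was at 62.7 and 40.5 CPM (1.97 ± 0.29). In all, 7 of 28 members were higher and 11 lower (24.9% and 22.2%). *Sema4a*, among the higher, was at 2.02 and 18.6 CPM, so that its rise rests on replicate 3 (log2 fold change -0.37 without it).

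Meningeal-like cells (42 and 128) held *Sema3a* at 273 and 282 CPM, *Sema6a* at 264 and 310 CPM, *Sema5a* at 218 and 169 CPM, *Plxnc1* at 121 and 98.6 CPM, *Plxna2* at 198 and 75 CPM, *Nrp1* at 94.4 and 115 CPM and *Nrp2* at 70.8 and 74.4 CPM. *Plxnc1* (2.36 ± 0.24), *Sema6a* (2.07 ± 0.26) and *Nrp2* (1.28 ± 0.26) were called higher and *Plxna2* lower (-1.95 ± 0.48), while *Sema3a* (0.87 ± 0.40) was not called and became so with the replicate block (0.90), with predicted doublets kept (0.81), without the filter on low counts (0.75) and at a clustering resolution of 0.5 (0.86). *Sema3d*, below 50 CPM, had its highest level of any named class there, at 42.8 and 17.5 CPM (3.56 ± 0.40, adjusted p = 1.77e-05). Of 28 members 6 were higher and 11 lower (29.6% and 24.8%).

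Cajal-Retzius-like cells (106 and 65) held *Sema6a* at 526 and 910 CPM (3.24 ± 0.24, adjusted p = 1.59e-06) and *Plxna4* at 434 and 519 CPM (1.05 ± 0.30; -0.21 and not called with doublets kept), and 10 members were higher and 5 lower (19.1% and 13.4%), with a median log2 fold change of 0.44 over the list. In replicate 1 this class also held GABAergic markers, 265 CPM summed over 8 genes against 16.6 CPM in replicate 3. At a clustering resolution of 0.5 it kept 34 and 62 cells with 4.93 and 11.2 CPM of these markers, and 10 members were higher and 8 lower, with a median of -0.24 (9, 9 and -0.52 with doublets kept). There *Sema6a* was at 695 and 917 CPM, *Plxna4* at 439 and 517 CPM and *Plxnd1* at 59.2 and 55.8 CPM (33.1 and 55.4 CPM before). *Nrp2* went from 196 and 83.1 to 29.6 and 82.6 CPM, *Nrp1* from 145 and 25.5 to 9.86 and 24.6 CPM, *Sema6d* from 484 and 89.7 to 47.7 and 89.3 CPM, *Plxna2* from 238 and 54.3 to 26.3 and 53.6 CPM and *Sema5a* from 132 and 109 to 46.0 and 109 CPM. With predicted doublets kept, *Plxna4* (-0.21) and *Sema6d* (-1.05 against 1.23 ± 0.46) turned.

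**Figure D4:**
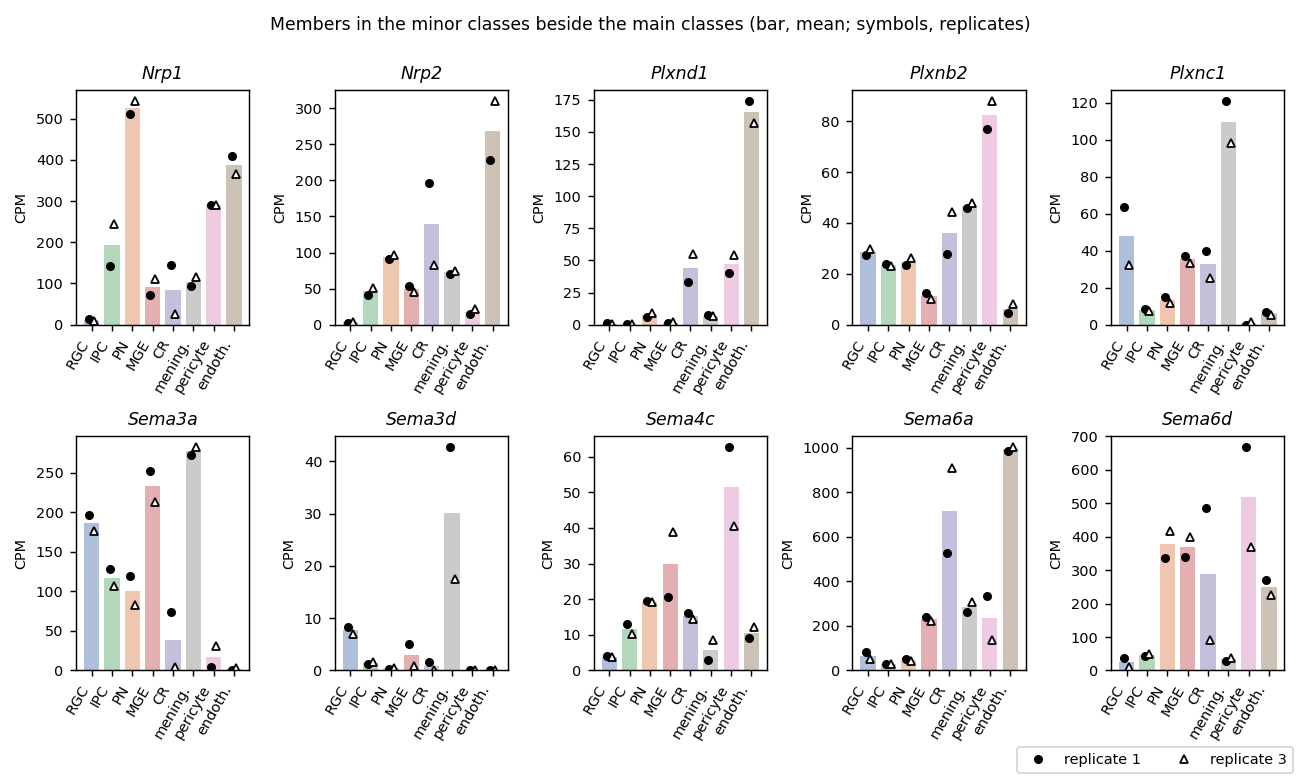
Level in CPM of 10 genes in the main classes (PN, projection neuron-like) and in Cajal-Retzius-like (CR), meningeal-like, pericyte-like and endothelial-like cells; bars are means of 2 replicates, circles replicate 1 and triangles replicate 3. *Plxnd1* stands out in endothelial-like cells at 174 and 157 CPM, *Sema3d* in meningeal-like cells, and the replicates of Cajal-Retzius-like cells are far apart in *Nrp1*, *Nrp2* and *Sema6d*.

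Clusters without a class name are given as values. In GABAergic cells led by *Adarb2* (382 and 25 cells) *Plxna2* was at 619 and 556 CPM, *Nrp2* at 72.8 and 215 CPM, *Nrp1* at 54.2 and 63.6 CPM and *Sema5b* at 112 and 135 CPM. *Sema3a* was at 88.4 and 15.9 CPM in them and *Sema6a* at 55.9 and 191 CPM. In cells led by *Ttr* and *Rspo2* (15 and 119) *Sema6a* was at 298 and 267 CPM, *Sema6d* at 245 and 633 CPM and *Plxnc1* at 155 and 61.5 CPM. Red blood cell-like cells (56 and 95) held at most 48.1 CPM of any member, that being *Plxna2* in replicate 1.

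Ligand and receptor levels were put side by side for 31 known pairs. The score of a pair is log2(CPM + 1) of the ligand in the sender class plus the same of the receptor in the receiver class, so that the highest score joins the class highest in the ligand with the class highest in the receptor. It is an RNA level, not a measure of contact or signalling. The highest score was the same class pair in both replicates for 27 of the 31 pairs. PN-like cells were the receiver in 17, MGE IN-like cells in 9, RGC-like cells in 5 and IPC-like cells in 0 of them, and the senders were MGE IN-like in 12, PN-like in 8, RGC-like in 6 and IPC-like cells in 5. A receptor has the same highest receiver in all its pairs, so these tallies also count how often each gene was listed. The PN-like receivers rest on *Nrp1*, *Nrp2*, *Plxna2*, *Plxna4* and *Plxnd1*. The MGE IN-like receivers rest on *Plxna1*, *Plxna3*, *Plxnb1* and *Plxnb3*, and *Plxna3* was not called between the neuron classes. *Plxna1* and *Plxnb1* lost their call there with the stricter cell filter (0.29 and 0.55) and with cells holding an *Sst* UMI alone (0.27 and 0.21). *Plxna1* also lost it with the replicate block, with doublets kept and without the filter on low counts. Of the 31 pairs, 4 hold *Sema3b*, *Sema3g* or *Plxnb3*, which failed the filter on low counts. Over the other 27 the receivers were PN-like in 14, MGE IN-like in 8 and RGC-like in 5, and the senders MGE IN-like in 12, PN-like in 8, RGC-like in 4 and IPC-like in 3. Among the ligands with MGE IN-like senders, *Sema3f*, *Sema4a*, *Sema4c* and *Sema4g* were not called between the neuron classes.

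From MGE IN-like senders, *Sema3a*-*Nrp1* scored 16.91 ± 0.11 (SD, n = 2) with PN-like receivers, 15.42 ± 0.38 with IPC-like, 14.36 ± 0.29 with MGE IN-like and 11.42 ± 0.53 with RGC-like receivers. *Sema6a*-*Plxna4* scored 18.07 ± 0.30 with PN-like, 16.06 ± 0.37 with IPC-like, 16.02 ± 0.56 with MGE IN-like and 11.98 ± 0.19 with RGC-like receivers. In both pairs IPC-like receivers scored above RGC-like receivers by more than the spread between samples. With the sender held fixed, this restates the levels of *Nrp1* and *Plxna4* in both receiver classes. With doublets kept, the log2 fold changes of *Nrp1* and *Plxna4* between these classes fell from 4.25 to 1.69 and from 4.20 to 1.42. *Sema3c*-*Nrp1* scored 15.75 ± 0.02 between PN-like cells and 11.44 ± 0.73 from MGE IN-like to PN-like cells.

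MGE IN-like senders joined RGC-like receivers as the highest score in 3 pairs, *Sema4a*, *Sema4c* and *Sema4g* with *Plxnb2*. The receptor levels behind this differed little, since *Plxnb2* was at 27.3 and 29.7 CPM in RGC-like, 23.7 and 22.9 CPM in IPC-like and 23.5 and 26.1 CPM in PN-like cells and was not called among these 3 classes. None of the 3 ligands was called between MGE IN-like and PN-like cells in the main fit. *Sema4a* was at 7.82 and 7.23 CPM (14 and 8 UMIs) against 3.37 and 2.45 CPM, and was called with the replicate block (1.14). *Sema4c* was at 20.7 and 38.8 CPM against 19.4 and 19.2 CPM. *Sema5a*, in the other direction, scored 14.69 ± 0.04 from IPC-like and 14.53 ± 0.07 from RGC-like senders to *Plxna3* of MGE IN-like receivers, against 11.42 ± 0.08 from PN-like senders.

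The co-receptors, effectors and processing enzymes of the pathway, a list of 44 genes of which 42 were tested, moved in both directions. Against RGC-like cells 21 were higher and 12 lower in PN-like and in MGE IN-like cells alike (34.9% and 30%, and 28.7% and 31%, of all genes), and 16 higher and 11 lower in IPC-like cells (19.5% and 20.3%). Projection neuron-like against IPC-like cells gave 19 higher and 7 lower (26.1% and 23.5%), MGE IN-like against IPC-like cells 14 and 6 (24.0% and 27.6%), and against PN-like cells 5 and 13 (13.7% and 22.6%). The cell adhesion genes *Cntn2* (6.64 ± 0.24), *Chl1* (6.43 ± 0.18) and *L1cam* (5.61 ± 0.17), the last 2 of a family that acts as semaphorin co-receptors, and *Cdk5r1* (4.53 ± 0.19), an activator of Cdk5, were the most raised from RGC-like to PN-like cells, with *Erbb2* (-4.28 ± 0.39) the most lowered.

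From RGC-like to IPC-like cells the largest changes were in *Rnd2* (3.45 ± 0.30), a small GTPase of migrating neurons, *Chl1* (2.66 ± 0.16), the protease *Pcsk5* (-3.18 ± 0.27), the integrin *Itga1* (-2.67 ± 0.26) and *Erbb2* (-2.53 ± 0.43). From IPC-like to PN-like cells they were in *Cntn2* (4.92 ± 0.22), *Chl1* (3.77 ± 0.16), *Pcsk5* (3.32 ± 0.27), *L1cam* (3.11 ± 0.15) and the small GTPase *Rras* (-3.17 ± 0.26). MGE IN-like cells were above RGC-like cells in *Chl1* (6.26 ± 0.18) and *Cdk5r1* (4.81 ± 0.20) and below in *Erbb2* (-5.27 ± 1.04), *Rhod* (-5.02 ± 0.98) and *Rras* (-4.55 ± 0.58). Against IPC-like cells they differed most in *Rras* (-3.73 ± 0.64), *Chl1* (3.59 ± 0.16), *Rnd2* (-3.35 ± 0.40), *Rhod* (-3.32 ± 1.15) and *Cdk5r1* (2.79 ± 0.18). Below PN-like cells they were in *Cntn2* (-4.23 ± 0.26), *Rnd2* (-3.68 ± 0.39), *Pcsk5* (-2.19 ± 0.33) and *L1cam* (-1.87 ± 0.17), and above in *Farp1* (1.42 ± 0.12), an effector of *Sema6a* and *Plxna4* signalling.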

How the data were processed

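Raw UMI counts per gene and barcode were deposited by the authors as 1 filtered matrix per sample, made from 3' v3.1 libraries of dissociated dorsal telencephalon with Cell Ranger 7.0.0 and mm10 per the submitters' processing notes. Whether intronic reads were counted, and on which strand, is not given in the sources used here. Barcodes outside 1500 to 60000 UMIs, or with 10% or more of them mitochondrial, were removed (710 and 1387 in replicates 1 and 3), and 304 and 629 predicted doublets, called by nearness to simulated doublets, were left out. Clustering used 2000 variable genes, 30 principal components, 15 neighbours and Leiden resolution 1.0 (scanpy 1.11.5, Python 3.11.15), without the members and their partners. Clusters were named from 152 marker genes.

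For each class, the UMIs of a replicate were added up (at least 20 cells in minor classes, 50 in subclasses) and tested with edgeR 4.0.16 in R 4.3.3 (TMM scaling, filterByExpr, prior count 2, quasi-likelihood test). The SE of a fold change was derived from that test, as the absolute log2 fold change divided by the square root of its F statistic. P-values were adjusted by Benjamini-Hochberg across all genes, with a threshold of 0.05, and the script was first tested on simulated data. Members with an absolute log2 fold change of at least 1, called in the same direction in both samples, and at least 50 CPM in a main class in both samples were given in full, and in minor classes those at 50 CPM or more. Other members named were chosen after their values were seen. Of the 44 partners, those called with the 5 largest changes per comparison were named. Members, markers, partners and pairs were chosen with earlier results of these data known. Promoters came from RefSeq (GRCm38.p6), and no window was printed for *Plxna1*, *Plxna4*, *Sema3b* and *Sema3f*.

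Both classes of a comparison came from the same 2 libraries, so the replicate number pairs them. Deviations of same-numbered sums from the class means correlated at 0.0270 to 0.251 over 15209 genes, and the fit with a replicate block was an alternative. Other alternatives were DESeq2 1.42.0, library-size scaling, no filter on low counts, a stricter cell filter (3000 UMIs, 5% mitochondrial), doublets kept, Leiden resolutions 0.5 and 2.0, cells with an *Sst* UMI, and each replicate left out. The removal of the antisense-led cluster, the minimum of 10 cells, resolution 0.5 for minor classes, and single-replicate values for minor classes and subclasses were chosen after seeing the data. Intervals cover counting error only.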

Additional observations from a re-analysis of the deposited data

How the results depend on the processing

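Of 3345 recomputed values of 365 fold changes, 3054 kept their side of the threshold. With a replicate left out, a value was counted here if it moved by no more than the spread between samples. A direction that turned was also counted here where neither value was called. 58 lost a call and 84 gained one. Left-out replicates gave 290 (without replicate 1) and 289 (without replicate 3) of the values kept, and 144 that moved further. Their spread comes from the same 2 samples, which makes a larger move unlikely, so this part of the count does not measure stability. The count of members called between MGE IN-like and PN-like cells fell to 12 with cells holding an *Sst* UMI alone. With predicted doublets kept, 4 directions turned where the member was called in at least 1 of both fits. They were *Plxna4* in Cajal-Retzius-like cells (-0.21) and in MGE IN-like against IPC-like cells (0.63), *Sema6d* in Cajal-Retzius-like cells (-1.05), and *Sema7a* in deep layer against newborn cells (-0.50). *Sema4a* in pericyte-like cells turned without replicate 3 (-0.37, against 3.16 without replicate 1). The cause was not tested.

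With 2 samples, leaving 1 out allows no test. Of 245 called fold changes, 30 differed by more than 1.5 times in 1 replicate alone, 8 of 123 among the main classes. Beside those given above, these were *Sema4c* in MGE IN-like against IPC-like cells (0.57 and 1.77 from replicates 1 and 3), *Sema3f* in PN-like against IPC-like cells (4.92 and 2.11) and *Sema3a* in PN-like against RGC-like cells (-0.41 and -0.86).

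The replicate block, which uses the pairing, ended the call of *Plxna1* between the neuron classes (0.50) and in pericyte-like cells (-1.23), added 12 calls and moved the count of members lower in upper than in deep layer cells from 3 to 5. It moved no other count by over 1.5 times. Endothelial-like sums rest on 17 and 40 cells.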
